A study of Mus musculus with 12 samples.

Results

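Kidney transcripts of 8 aquaporins and of the vasopressin V2 receptor were measured: Aqp1, Aqp2, Aqp3, Aqp4, Aqp6, Aqp7, Aqp8, Aqp11 and Avpr2. These 9 genes, of the 19934 tested, were taken by name, as probe sets to which the platform annotation gives 1 symbol. Each had a single probe set, so no choice between probe sets was needed. Total RNA of whole kidney was hybridised to 12 mouse gene arrays, each from a female C57BL/6 mouse that had been fed a high-protein diet for 2 months. The 4 mutants were Mut -/- and carried the transgene TgINS-Alb-Mut, named for the albumin promoter, which is active in liver cells. The 4 heterozygotes and 4 wild-type mice (Mut+/- and Mut+/+) are the controls, and their genotype labels name no transgene. Transgene and loss of Mut therefore cannot be told apart. Mut (current symbol Mmut) encodes methylmalonyl-CoA mutase, the mitochondrial enzyme whose loss gives methylmalonic acidemia. The ages of the mice are not given in the sources used here.

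Aquaporins are membrane channels for water, and some also pass glycerol. In the kidney Aqp1 serves the proximal tubule and thin descending limb, where most filtered water is taken back. In the collecting duct, vasopressin binds the V2 receptor on principal cells, cyclic AMP rises, and vesicles carrying Aqp2 fuse with the apical membrane. Water then leaves the cell on the basolateral side through Aqp3 and Aqp4. Aqp6 sits in vesicles of acid-secreting intercalated cells, Aqp7 carries glycerol in the brush border of the last proximal segment (S3), and Aqp11 lies in the endoplasmic reticulum of proximal tubule cells.

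Mmut checked the genotypes: mutants lay between 8.20 and 8.47 on the log2 scale, heterozygotes between 9.87 and 9.97 and wild-type mice between 10.47 and 10.60. Array medians ranged from 7.17 to 7.23 and correlations between arrays from 0.982 to 0.995. 1 array stood apart. Mutant replicate 3 had a mean of 10.92 over 5 adrenal cortex markers (Star, Cyp11a1, Cyp11b1, Cyp21a1 and Hsd3b1), while the other 11 arrays lay between 5.49 and 5.95. The same array had the lowest mutant mean of the S3 marker list (8.94, the other mutants up to 9.76) and of the endothelial list (8.95, the others 9.29 to 9.32). It was the lowest of all 12 arrays for 3 of the 9 genes, against 16% of all genes. For each of the 9 genes the mutant against wild-type result is therefore given with and without this array.

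In mutants against wild-type mice, Aqp3 and Aqp6 rose, by 1.23-fold and 1.29-fold, and Aqp4 and Aqp11 fell, by 1.49-fold and 1.30-fold. Aqp1, Aqp2, Aqp7, Aqp8 and Avpr2 did not pass the threshold of an adjusted p under 0.05 (limma, Benjamini-Hochberg over all genes). The 4 calls among 9 genes stand beside 9.66% of all genes called in this comparison, 2.96% higher and 6.69% lower in mutants. The median log2 difference of the 9 genes was -0.01, against 0.00 over all genes. Without mutant replicate 3 the calls of Aqp3 and Aqp6 held, while Aqp4 and Aqp11 had adjusted p = 0.0657 and 0.0545, and 7.79% of all genes were called. All differences were small. In RNA of a whole kidney, fewer cells of a type and less RNA per cell cannot be told apart.

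**Figure D1:**
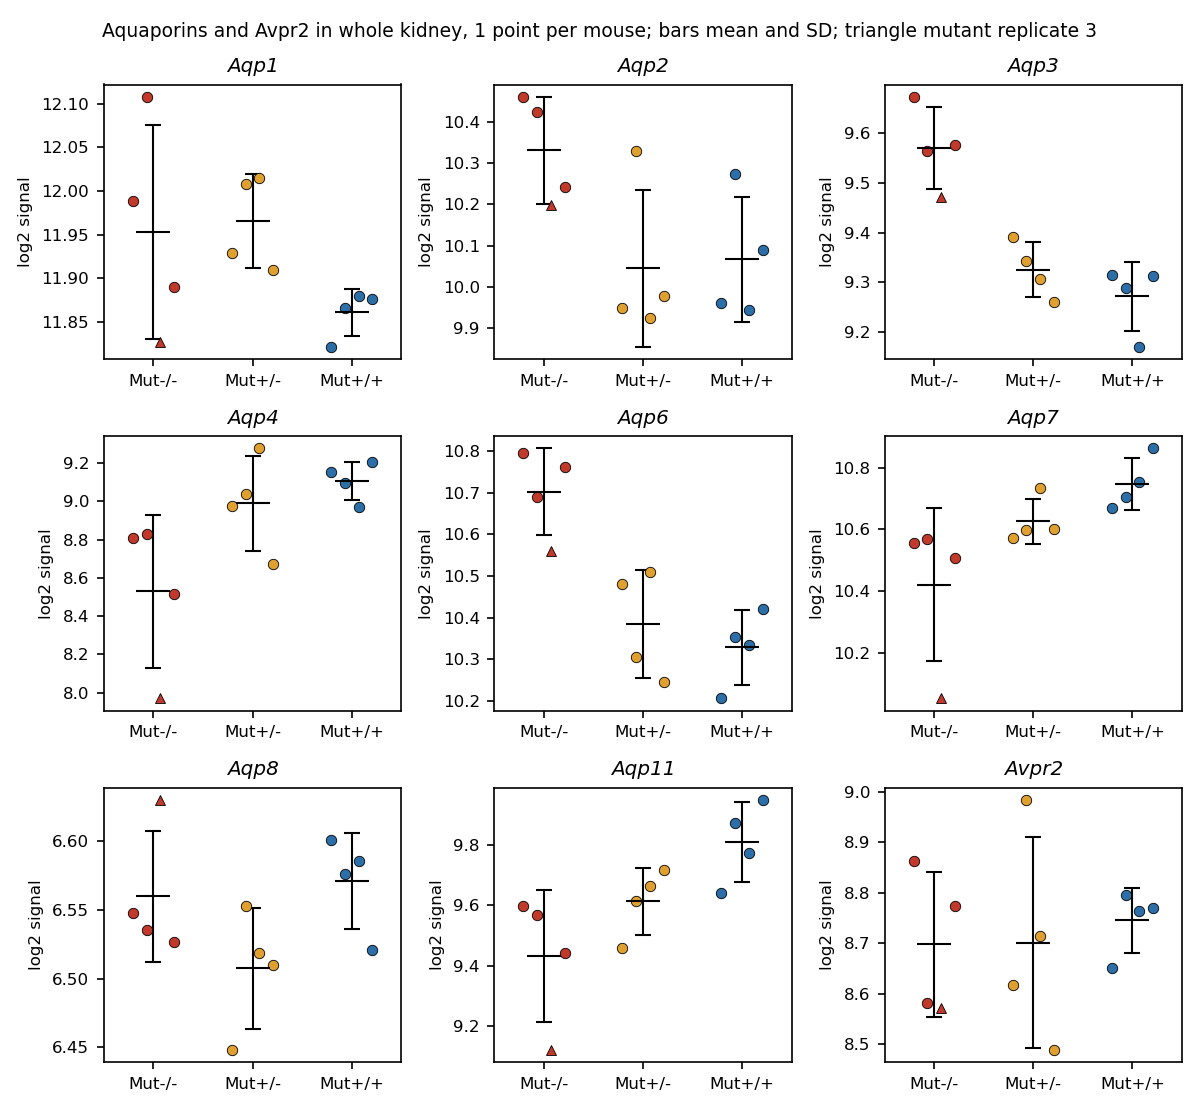
Log2 signal of each of the 9 genes (vertical axes, scaled per gene) by genotype, with 1 point per mouse, a bar at the group mean and whiskers of 1 SD (n = 4). The mutants lie above all other arrays for Aqp3 and Aqp6, and mutant replicate 3 (triangle) lies lowest for Aqp4, Aqp7 and Aqp11.

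The vasopressin receptor itself did not differ beyond its spread. Avpr2 stood at 8.86, 8.58, 8.57 and 8.77 in the mutants (replicates 1 to 4), at 8.62, 8.98, 8.72 and 8.49 in the heterozygotes and at 8.65, 8.80, 8.76 and 8.77 in the wild-type mice. The ranges overlapped in every pair of groups. The mutant minus wild-type difference was -0.05 on the log2 scale (95% interval -0.25 to 0.16, adjusted p = 0.813 with limma), which leaves room for changes of up to about 1.19-fold down or 1.12-fold up. It was -0.0058 without mutant replicate 3 (adjusted p = 0.984). Heterozygotes varied most, with an SD of 0.21 against 0.06 in wild-type mice.

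Aqp2, the vasopressin-regulated channel of the apical membrane, had its highest values in mutants but overlapped the controls. Its log2 signal was 10.46, 10.42, 10.20 and 10.24 in the mutants, 9.95, 10.33, 9.93 and 9.98 in the heterozygotes and 9.96, 10.27, 9.94 and 10.09 in the wild-type mice. Heterozygote replicate 2 and wild type replicate 2 reached the mutant range, and the other 6 control arrays lay below it. The difference from wild type was 0.26 (95% interval 0.05 to 0.48, adjusted p = 0.118) and that from heterozygotes 0.29 (adjusted p = 0.164). Neither passed the threshold over all genes, nor did they without mutant replicate 3, at 0.31 (adjusted p = 0.0952) and 0.33 (adjusted p = 0.142). The two-sided exact permutation p was 0.0857 for each, where 0.0286 is the smallest that 4 against 4 arrays allow.

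Aqp3, the basolateral channel for water and glycerol in the same cells, was higher in every mutant than in any control. The mutants had 9.67, 9.56, 9.47 and 9.58, the heterozygotes 9.39, 9.34, 9.31 and 9.26, and the wild-type mice 9.31, 9.29, 9.17 and 9.31. Against wild type the difference was 0.30 (SE 0.06, 95% interval 0.18 to 0.42, adjusted p = 0.00505), and no array left out ended that call. Without mutant replicate 3, its lowest mutant, the difference was 0.33 (adjusted p = 0.00368). Against heterozygotes the difference was 0.25 (adjusted p = 0.0328). That call was lost when any of 8 arrays was left out: mutant replicates 1, 2 and 4, the 4 heterozygotes and wild type replicate 2 (adjusted p up to 0.106). It held without mutant replicate 3, at 0.28 (adjusted p = 0.0228). Heterozygote and wild-type levels overlapped and did not differ beyond their spread (difference 0.05, adjusted p = 0.748).

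Aqp4, the second basolateral channel of principal cells, which in mice is also made in the S3 segment, went the other way from Aqp3. Its signal was 8.81, 8.83, 7.97 and 8.52 in the mutants, 8.97, 9.04, 9.28 and 8.67 in the heterozygotes and 9.15, 9.09, 8.97 and 9.20 in the wild-type mice. All mutants lay below all wild-type arrays, while heterozygote replicate 4 fell inside the mutant range. Of the 9 genes it had the widest spread among mutants, with an SD of 0.40. Against wild type it was 0.58 lower on the log2 scale (difference -0.58, SE 0.17, adjusted p = 0.0437). Without mutant replicate 3 the difference shrank to -0.39 (95% interval -0.65 to -0.13, adjusted p = 0.0657), with the 3 remaining mutants still apart from wild type. The call also ended without mutant replicate 4, heterozygote replicate 1 or 2, or any 1 wild-type array, with adjusted p up to 0.121. Against heterozygotes the difference was -0.46 (adjusted p = 0.179), or -0.27 without mutant replicate 3 (adjusted p = 0.317).

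None of 6 other principal cell markers (Scnn1b, Scnn1g, Fxyd4, Hsd11b2, Elf5 and Gata3) was called in either comparison with the mutants, but single markers differed in direction. Against wild type, 2 had an unadjusted p under 0.05, and the lowest limma adjusted p was 0.0727. Fxyd4, a regulator of the sodium pump, lay between 9.11 and 9.27 in mutants, between 8.74 and 9.02 in heterozygotes and between 8.91 and 9.07 in wild-type mice. As for Aqp3, every mutant was above every control (difference from wild type 0.18, adjusted p = 0.108; from heterozygotes 0.24, adjusted p = 0.0851). Gata3, a transcription factor gene, lay below all wild-type arrays in all mutants (difference -0.23, adjusted p = 0.0727). The sodium channel subunit gene Scnn1b stood at 9.44 in mutants and 9.45 in wild-type mice. Against heterozygotes all 6 had an unadjusted p under 0.05, 4 lower and 2 higher in mutants (median -0.16, lowest adjusted p = 0.0851), and without mutant replicate 3 this was so for 2. With 1 array left out at most 1 marker fell against wild type and at most 1 rose against heterozygotes. The mean of the list ranged from 9.07 to 9.19 in mutants, 9.08 to 9.28 in heterozygotes and 9.14 to 9.24 in wild-type mice, with overlap throughout. The part of these markers in the Aqp2, Aqp3 and Aqp4 signal was not tested.

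Aqp6, the vesicle channel of intercalated cells, showed the clearest separation beside Aqp3. Its signal was 10.80, 10.69, 10.56 and 10.76 in the mutants, 10.48, 10.30, 10.51 and 10.25 in the heterozygotes and 10.21, 10.35, 10.34 and 10.42 in the wild-type mice. Each mutant lay above all 8 controls. The difference from wild type was 0.37 (SE 0.07, 95% interval 0.21 to 0.53, adjusted p = 0.00718), held under each array left out, and was 0.42 without mutant replicate 3 (adjusted p = 0.00469). The difference from heterozygotes was 0.32 (adjusted p = 0.0384) and 0.36 without that array (adjusted p = 0.0231). The latter comparison lost its call when any of 8 other arrays was left out: mutant replicates 1, 2 and 4, heterozygote replicates 1, 2 and 4 and wild type replicates 2 and 3 (adjusted p up to 0.116).

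The intercalated cell markers measured beside Aqp6 were mixed. Of 8, none rose and 3 fell in mutants against wild type with all arrays, 6 had an unadjusted p under 0.05, and their median difference was -0.09. The 37.5% that fell stand beside 6.69% of all genes. Slc26a4, which encodes the chloride-bicarbonate exchanger pendrin of bicarbonate-secreting intercalated cells, was 0.65 lower (difference -0.65, adjusted p = 0.000179). Insrr, an insulin receptor-related receptor of those same cells, was also lower (difference -0.64, adjusted p = 0.000327). The proton pump subunit gene Atp6v0d2 had a difference of -0.24, with a call (adjusted p = 0.037) that was lost when any of 8 arrays was left out, mutant replicate 3 among them (adjusted p = 0.0584). Slc4a1, the anion exchanger of the acid-secreting cells in which Aqp6 is found, stood at 10.00 in mutants, which ranged from 9.54 to 10.62, and 9.66 in wild-type mice (difference 0.35, adjusted p = 0.202). The proton pump subunit gene Atp6v1g3 had a difference of 0.18 (adjusted p = 0.164). The list mean ran from 9.36 to 9.56 in mutants and from 9.57 to 9.62 in wild-type mice. On the arrays other than mutant replicate 3, Slc4a1 rose (difference 0.50, adjusted p = 0.0395), while Slc26a4 and Insrr fell. In that fit 3 erythroid markers had a median difference of 0.50 from wild type (lowest adjusted p = 0.0692). With all arrays their mean ran from 6.82 to 8.31 in mutants and from 6.91 to 7.13 in wild-type mice. The part of erythroid cells in the Slc4a1 signal was not tested.

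**Figure D2:**
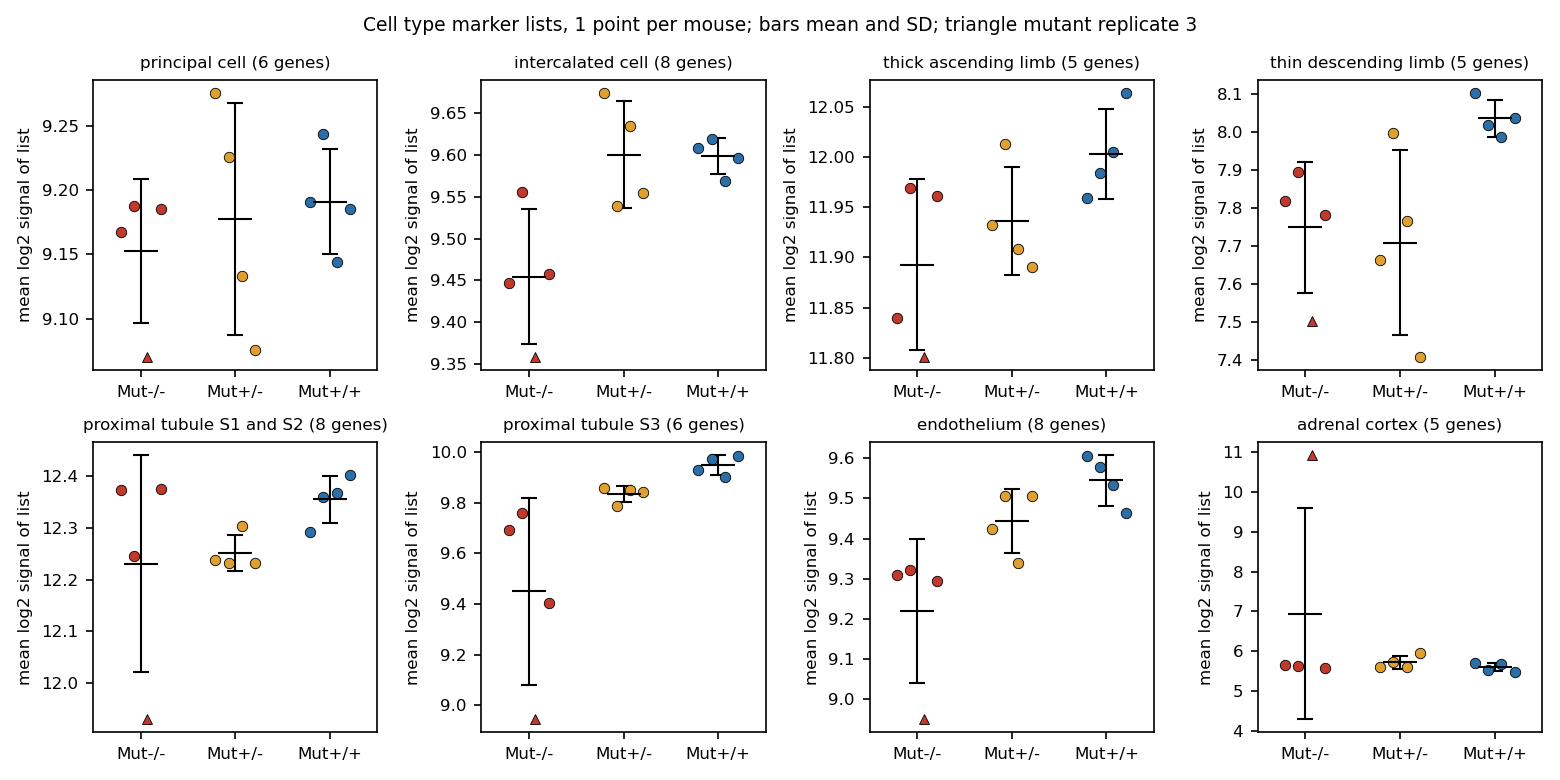
Mean log2 signal of 8 cell type marker lists (vertical axes, scaled per list) by genotype, with 1 point per mouse, bars at the mean and whiskers of 1 SD (n = 4). Principal cell markers overlap between genotypes, S3 and endothelial markers are low in mutants, and mutant replicate 3 (triangle) is alone at 10.92 for adrenal cortex markers.

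Aquaporins 2, 5 and 6 form a cluster on chromosome 15, where Aqp5 is the only protein-coding gene between Aqp2 and Aqp6, and Aqp3 and Aqp7 are adjacent on chromosome 4 (RefSeq gene order, GRCm38.p6). Among these neighbours only Aqp3 and Aqp6 were called. In the chromosome 15 cluster the mutant minus wild-type difference was 0.26 for Aqp2 (adjusted p = 0.118) and 0.37 for Aqp6, and Aqp5 stood at 7.68 in mutants and 7.65 in wild-type mice (adjusted p = 0.786). Beside Aqp3, which rose, Aqp7 had a difference of -0.33 (adjusted p = 0.0517). The 250 bases upstream of the annotated start are shown for Aqp2, for Aqp3 and Aqp6, which rose together, and for Aqp11, which fell. They come from RefSeq promoters (GRCm38.p6), where 8 of the 9 genes matched, and are written 5′ to 3′ on the gene's strand. The Aqp6 window precedes a transcript start inside the annotated gene, whose span begins at base 99598468. The windows of Avpr2 and Aqp7, searched below but not shown, also precede starts inside the annotated genes. Capitals mark matches of the motifs named afterwards.
Aqp2, chr15:99578806-99579055, plus strand: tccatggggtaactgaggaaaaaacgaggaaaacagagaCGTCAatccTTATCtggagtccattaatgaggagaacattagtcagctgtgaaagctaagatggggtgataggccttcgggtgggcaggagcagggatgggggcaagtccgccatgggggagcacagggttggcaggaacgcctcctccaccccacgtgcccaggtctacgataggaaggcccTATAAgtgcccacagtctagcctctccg
Aqp3, chr4:41098184-41098433, minus strand: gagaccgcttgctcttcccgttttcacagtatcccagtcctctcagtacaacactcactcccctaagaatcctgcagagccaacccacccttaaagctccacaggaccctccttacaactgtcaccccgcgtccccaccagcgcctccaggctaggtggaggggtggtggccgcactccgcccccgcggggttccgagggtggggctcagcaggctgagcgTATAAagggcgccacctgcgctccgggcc
Aqp6, chr15:99600950-99601199, plus strand: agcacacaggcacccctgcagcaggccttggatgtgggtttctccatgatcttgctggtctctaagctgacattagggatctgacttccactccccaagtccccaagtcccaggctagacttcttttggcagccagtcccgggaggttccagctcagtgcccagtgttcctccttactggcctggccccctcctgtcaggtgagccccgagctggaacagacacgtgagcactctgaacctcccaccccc
Aqp11, chr7:97738248-97738497, minus strand: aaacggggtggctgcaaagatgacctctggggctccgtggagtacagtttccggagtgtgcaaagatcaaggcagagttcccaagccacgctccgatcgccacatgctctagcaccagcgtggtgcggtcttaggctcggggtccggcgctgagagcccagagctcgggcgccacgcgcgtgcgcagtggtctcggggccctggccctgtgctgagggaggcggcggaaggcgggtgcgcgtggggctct

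Motif matches upstream of these genes are given as a description, beside the share of all windows with a match. TATAA and GATAA were each matched in 3 of the 8 genes with a window, and TGACG and TGGAAA in 1 each. Whether these counts depart from the shares of all windows was not tested. 8 motifs were searched on both strands in 9 windows of 8 genes, Aqp7 having 2 windows. TATAA, the core of a TATA box, was at bases -28 to -24 of Aqp2 and -29 to -25 of Aqp3, counted back from the start, and on the minus strand at -44 to -40 of Avpr2. It was in no window of the other 5 genes. A match of TATAA anywhere was found in 22.8% of 32851 windows of this length. TGACG, the core of a cyclic AMP response element, was matched in Aqp2 alone, on the minus strand at -211 to -207 (17.8% of all windows). GATAA, the sequence read by GATA factors, was found in Aqp2, Avpr2 and 1 window of Aqp7 (22.6% of all windows). TGGAAA, the core of the element read by the tonicity factor Nfat5, was in the same window of Aqp7 (18.6%). The full cyclic AMP response element TGACGTCA, which contains TGACG on both strands, was in none of the 9 windows and in 1.55% of all. The HNF1 site, the direct repeat read by nuclear receptors and the inverted repeat read by the farnesoid X receptor were also in none, and in 0.0609%, 0.0335% and 0.00609% of all windows. No matches of these motifs overlapped in the windows of the 8 genes. A match is a run of letters, not a measured binding site.

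The proximal tubule members were lower or did not differ. Aqp11, the endoplasmic reticulum channel whose loss gives vacuolated proximal tubules in mice, had 9.60, 9.57, 9.12 and 9.44 in the mutants, 9.46, 9.61, 9.66 and 9.72 in the heterozygotes and 9.64, 9.87, 9.77 and 9.95 in the wild-type mice. Mutants and wild-type mice did not overlap, and heterozygotes lay across both ranges. The mutant difference from wild type was -0.38 (SE 0.10, 95% interval -0.59 to -0.16, adjusted p = 0.0311). It was -0.27 without mutant replicate 3 (95% interval -0.45 to -0.10, adjusted p = 0.0545), and the call also ended without mutant replicate 4 or wild type replicate 2, 3 or 4 (adjusted p up to 0.104). The heterozygote mean of 9.61 lay between the others, and neither step passed the test: -0.18 for mutants against heterozygotes (adjusted p = 0.436, or -0.08 without mutant replicate 3, adjusted p = 0.74) and -0.20 for heterozygotes against wild type (adjusted p = 0.481).

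Aqp7, the glycerol channel of the S3 brush border, had the same order of groups and missed the threshold. Its signal was 10.56, 10.57, 10.05 and 10.51 in the mutants, 10.57, 10.60, 10.73 and 10.60 in the heterozygotes and 10.67, 10.70, 10.75 and 10.86 in the wild-type mice. Mutant arrays did not overlap either control group, although mutant replicate 2 and heterozygote replicate 1 were nearly level. The difference from wild type was -0.33 (95% interval -0.54 to -0.12, adjusted p = 0.0517). It was -0.20 without mutant replicate 3 (adjusted p = 0.052), and it passed the threshold without mutant replicate 1 or 2 (adjusted p = 0.0418 and 0.0426). From heterozygotes the mutants differed by -0.21 (limma adjusted p = 0.341), or by -0.08 without mutant replicate 3 (adjusted p = 0.598).

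S3 markers were lower in the same mutants. Of 6 markers 4 fell (66.7%, beside 6.69% of all genes) and none rose, with a median difference of -0.52. Slc22a7, an organic anion transporter, was lowest (difference -1.52, adjusted p = 0.00973), and the aminoacylase gene Acy3 had a difference of -0.52 (adjusted p = 0.0132). Without mutant replicate 3 these were -1.11 (adjusted p = 0.00292) and -0.39 (adjusted p = 0.01), and 3 of the 6 fell. The amino acid transporter gene Slc7a13 rose in that fit (difference 0.67, adjusted p = 0.0303). Its signal was low, 5.70 to 6.03 in wild-type mice and 5.90 to 6.95 over all mutants. The list mean ran from 8.94 to 9.76 in mutants, 9.90 to 9.98 in wild-type mice and 9.79 to 9.86 in heterozygotes. The markers of the earlier segments S1 and S2 overlapped between mutants (11.93 to 12.37) and wild-type mice (12.29 to 12.40). Among 8 of them Cubn, the endocytic receptor cubilin, alone fell (1 of 8 or 12.5%; difference -0.36, adjusted p = 0.00401). The part of these cell types in the lower Aqp7, Aqp11 and Aqp4 signal was not tested.

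Aqp1, the constitutive water channel of the proximal tubule and thin descending limb, did not differ between mutants and wild-type mice beyond the spread. Its signal was 11.99, 12.11, 11.83 and 11.89 in the mutants, 11.93, 12.01, 12.02 and 11.91 in the heterozygotes and 11.82, 11.87, 11.88 and 11.88 in the wild-type mice. The mutants spread widest and overlapped both other groups. Their difference from wild type was 0.09 (95% interval -0.03 to 0.22, adjusted p = 0.373). It was 0.13 without mutant replicate 3 (95% interval 0.01 to 0.26, adjusted p = 0.189), and the 3 remaining mutants lay above all wild-type arrays. All heterozygotes lay above all wild-type mice, by 0.10 on average (adjusted p = 0.527). Of 5 thin descending limb markers 1 fell (20.0%), the borate and proton transporter family gene Slc4a11 (difference -0.36, adjusted p = 0.00494). Aqp1 is also made by capillary endothelium, whose 8 markers held 3 that fell (37.5%, beside 6.69% of all genes). Ehd3 was first (difference -0.57, adjusted p = 0.000679). Without mutant replicate 3 the number that fell was 2, beside 5.27% of all genes.

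Aqp8, an intracellular channel of tubule cells, had a low signal that varied little, with values between 6.45 and 6.63 on all 12 arrays. Mutants averaged 6.56 ± 0.05, heterozygotes 6.51 ± 0.04 and wild-type mice 6.57 ± 0.04 (SD, n = 4). The difference between mutants and wild-type mice was -0.01 (95% interval -0.11 to 0.09, adjusted p = 0.914), or -0.034 without mutant replicate 3 (adjusted p = 0.743). RMA, the method behind these values, compresses differences near background, so this interval holds for the deposited scale.

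**Figure D3:**
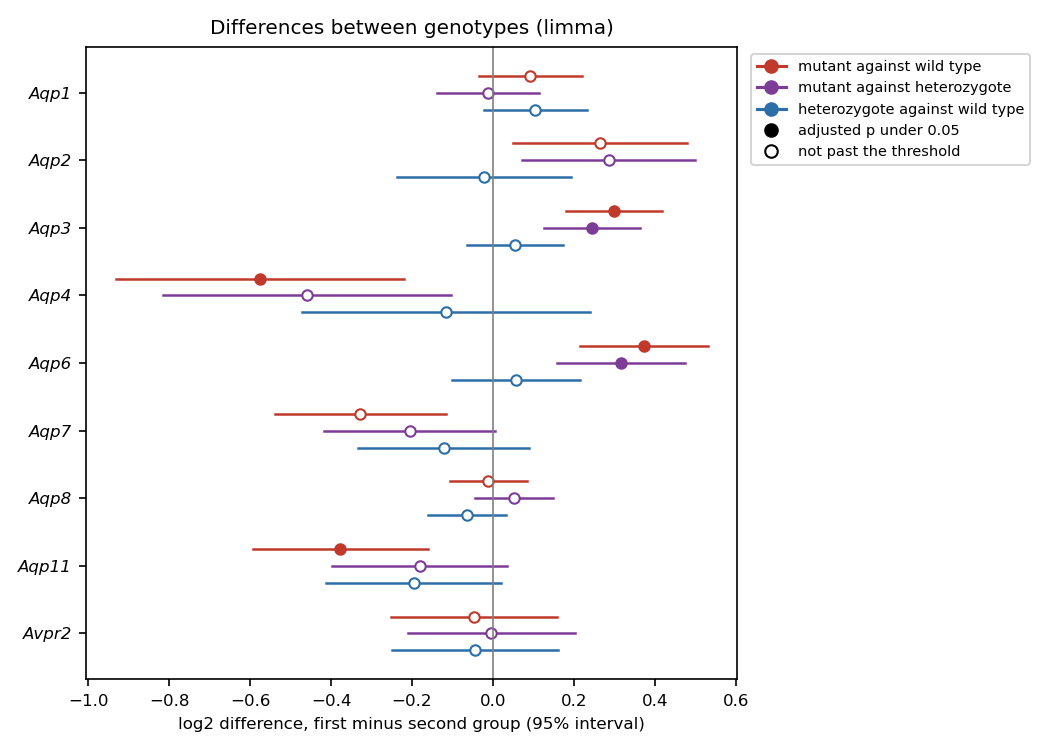
Log2 differences between genotypes (horizontal axis) for the 9 genes with 95% intervals from limma, filled where the adjusted p was under 0.05. Aqp3 and Aqp6 are filled on the right for both comparisons with the mutants, Aqp4 and Aqp11 on the left for mutant against wild type, and no heterozygote against wild type difference is filled.

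Against heterozygotes, mutants were again higher for Aqp3 and Aqp6 and no other gene passed the test. These 2 calls among 9 genes stand beside 2.54% of all genes called, 1.07% higher and 1.46% lower in mutants. The arrays of the groups did not overlap for 3 genes (Aqp3, Aqp6 and Aqp7), where 9.69% of all genes were apart. In mutants against wild type 5 genes were apart, where 14.7% of all genes were. Both comparisons use the same 4 mutants, so their results do not stand independently of each other.

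Heterozygotes and wild-type mice did not differ in any of the 9 genes with limma. The lowest adjusted p was 0.481, no gene had an unadjusted p under 0.05, and 0.135% of all genes were called. By the exact permutation test Aqp1 alone reached 0.0286, and it alone had groups that did not overlap, as had 8.44% of all genes. The group order for Aqp4, Aqp7 and Aqp11 was wild type, heterozygote, mutant from high to low, and for Aqp3 and Aqp6 it was mutant, heterozygote, wild type. In these orders the step between heterozygote and wild type was within the spread for each gene. For Aqp2 and Avpr2 the controls were 0.02 and 0.04 apart.

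**Figure D4:**
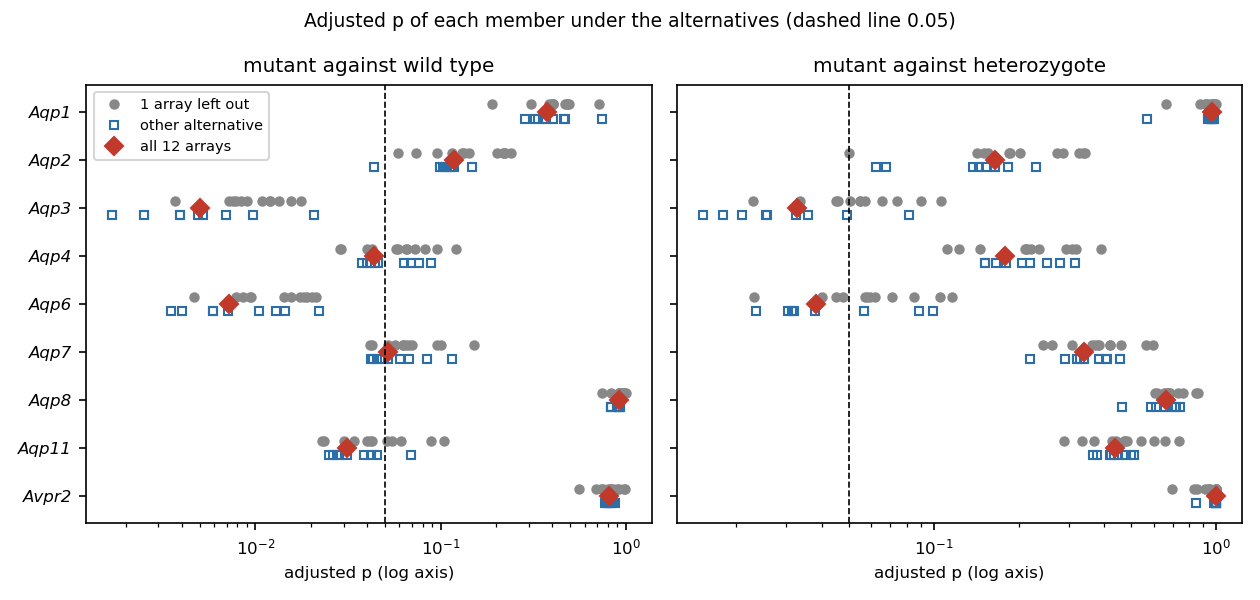
Adjusted p (horizontal log axis) of each gene with all 12 arrays (diamonds), with 1 array left out (grey circles) and under the other alternatives (squares), for the mutants against wild type and against heterozygotes, with a dashed line at 0.05. Aqp3 and Aqp6 stay left of the line throughout against wild type, while Aqp2, Aqp4, Aqp7 and Aqp11 lie on both sides.

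Genes that carry the vasopressin signal and move Aqp2 vesicles were lower in mutants than in wild-type mice or did not pass. Of 18 listed genes 14 were measured by a probe set with 1 symbol, of which none rose and 5 fell in mutants against wild type (median -0.09). That is 35.7% lower, beside 6.69% of all genes. All that fell are genes of vesicle traffic. Among the signal genes Adcy3, Adcy6, Adcy9, Prkacb, Prkar2a, Creb1, Akap7 and Pde4d none was called. Whether the lower levels lie in principal cells was not tested, as whole kidney RNA mixes cell types. Rab5a and Rab11a, small GTPases of early and recycling endosomes, had differences of -0.34 (adjusted p = 0.00662) and -0.26 (adjusted p = 0.014). Nsf, the ATPase that recycles fusion complexes, had -0.19 (adjusted p = 0.0139). Each of these 3 calls held whichever array was left out. Myo5b, the motor of recycling vesicles, had -0.20 (adjusted p = 0.039), a call lost when any of 9 arrays was left out, mutant replicate 3 giving the highest adjusted p of 0.0957. The adenylate cyclase gene Adcy6 stood at 9.95 in mutants and 10.02 in wild-type mice (adjusted p = 0.424). Snap23 was also called lower, a call lost when any of 10 arrays was left out (adjusted p up to 0.126). The number that fell was 3 or 4 whichever array was left out, and 3 without mutant replicate 3. In mutants against heterozygotes 1 of the 14 fell (7.14%, beside 1.46% of all genes) and none rose. It was Myo5b (limma adjusted p = 0.0497), and no gene of the list was called without mutant replicate 3.

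Among 11 other hormone receptors and ligands of the collecting duct 1 fell and none rose, or 9.09%, near the 6.69% of all genes called lower. It was P2ry2, the purinergic receptor that opposes vasopressin in principal cells. Its level was 8.36 in mutants, 8.94 in wild-type mice and 8.76 in heterozygotes. The difference from wild type was -0.58 (adjusted p = 0.00224) and held whichever array was left out. The difference from heterozygotes was -0.41 (adjusted p = 0.0382) and lost its call when any of 8 arrays was left out: mutant replicates 2, 3 and 4, heterozygote replicates 1, 3 and 4 and wild type replicates 2 and 3 (adjusted p up to 0.114).

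Of 11 measured transcription factor genes of principal cells and water channels 2 rose and none fell, or 18.2% higher beside 2.96% of all genes. These were Nr1h4, the farnesoid X receptor (difference 0.37, adjusted p = 0.0468), and the epithelial factor gene Elf3 (0.28, adjusted p = 0.0486). Both calls were lost when any of 9 arrays was left out, mutant replicate 3 among them (adjusted p = 0.109 and 0.117). This list was mixed, with a median difference of -0.004. For Gata2 the mutants (8.37 to 8.50) lay below all wild-type arrays (8.57 to 8.75), as they did for Gata3, without a call for either. Of 11 measured genes of the medullary gradient 2 fell (18.2%, beside 6.69% of all genes) and none rose. Hspa4l, an osmotic stress chaperone gene, had a difference of -0.36 (adjusted p = 0.00272) and held whichever array was left out. The inositol transporter gene Slc5a3, which loads cells with an osmolyte, had -0.33 (adjusted p = 0.0461) and lost its call without mutant replicate 3 (adjusted p = 0.07) or any 1 of 9 others. Slc14a2, the urea transporter that vasopressin also regulates, stood at 8.92 in mutants and 9.29 in wild-type mice (adjusted p = 0.257).

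The 4 other aquaporin genes on the array included 1 riser (beside 2.96% of all genes), Aqp12, an aquaporin of the exocrine pancreas (difference 0.22, adjusted p = 0.0483), whose call was lost when any of 10 arrays was left out, mutant replicate 3 among them (adjusted p = 0.103). The mean of 5 pancreas markers was 6.03 to 6.15 in mutants and 5.95 to 6.15 in wild-type mice. Across the 12 arrays, after subtraction of group means, the genes most like Aqp3 among 15754 were F8a, Mfsd8 and Adipor2 (Pearson r 0.98, 0.91 and 0.91). Those most like Aqp2 were Oaf, Anks4b and Abce1 (r 0.95, 0.92 and 0.89). These are the highest of many correlations over arrays that share the same normalisation, and are given as a description. None of these 6 genes was called between mutants and wild-type mice.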

How the data were processed

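Total RNA of whole kidney from 12 mice was hybridised to 1 array each. The labels' descriptions name a mouse gene 1.0 ST array and their labelling text the human one; the probe sets matched mouse genes. Per the submitters' processing notes, the authors used Affymetrix Expression Console 1.2.1 and RMA, which corrects for background, makes the arrays' distributions equal and combines the probes of a set. The deposited values are on a log2 scale. Of 35552 probe sets, 21785 had 1 symbol in the platform annotation, and the brightest per gene gave 19934 genes. The probe sets' genome build was not given in the sources used here.

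Genotypes were compared with limma 3.58.1 in R 4.3.3 (lmFit, eBayes), with all 3 groups in 1 fit and p-values adjusted by Benjamini-Hochberg over all genes of a comparison. The limma p-values set each difference against the spread between mice within all 3 groups, drawn toward the spread of all genes. With 4 arrays a group the precision is limited. Two-sided exact permutation tests were added for single genes. The fit was tested on simulated data. The 9 genes, the 5 pathway lists and the 12 marker lists were chosen with earlier results of these data known. From each pathway list up to 4 called genes with the smallest p were named, and other genes were named after their values were seen. Genes most like Aqp3, the member with the smallest p, and Aqp2 were named by correlation. Fits without mutant replicate 3 with their own means were examined after seeing the data. Promoter windows come from RefSeq. Figures were drawn with matplotlib 3.10.9 in Python 3.11.15.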

Additional observations from a re-analysis of the deposited data

Results flagged for a closer look

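Of 81 group values screened, 30 of genes and 51 of list means, 9 held an array far from the other 3 of its group, where chance gives about 1 in 20. Mutant replicate 3 was such an array 4 times: its adrenal cortex list mean was 10.92 (the other mutants 5.57 to 5.65), its endothelial list mean 8.95 (9.29 to 9.32), its mean of the vasopressin signalling and Aqp2 trafficking list 9.09 (9.17 to 9.19) and its Aqp7 signal 10.05 (10.51 to 10.57). Heterozygote replicate 2 was high for Aqp2, at 10.33 (the others 9.93 to 9.98). Heterozygote replicate 3 was high for Aqp7 at 10.73 (10.57 to 10.60) and for the S1 and S2 markers at 12.30 (12.23 to 12.24), and low for the trafficking list at 9.20 (9.22 to 9.23). Wild type replicate 3 was low for the transcription factor list, at 8.66 (8.75 to 8.76).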

How the results depend on the processing

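Each comparison was repeated under 21 alternatives, 12 of which left out 1 array. Against wild type, Aqp3 and Aqp6 kept their direction and call in all 21 (log2 differences 0.27 to 0.33 and 0.33 to 0.42). Aqp4 kept its direction and lost its call in 12 (differences -0.67 to -0.39, adjusted p up to 0.121), and Aqp7 passed the threshold in 6. With 1 array left out, the number of the 9 genes called ran from 2 to 5 for mutant against wild type, from 0 to 2 for mutant against heterozygote and stayed at 0 for heterozygote against wild type; over all genes the counts ran from 1019 to 1928, from 229 to 592 and from 5 to 67. With only the 2 groups compared in the fit, 2 of the 9 genes were called against wild type and 0 against heterozygotes, with 1154, 191 and 78 genes called over all in the 3 comparisons. For heterozygote against wild type 163 genes were called with array weights and 42 with a trended and robust variance prior, against 27. With array medians centred, 1 of the 9 genes was called against heterozygotes (Aqp6 had adjusted p = 0.0566). Replicate numbers are not said to pair the mice: 1 of 12 same-numbered pairs had a correlation of deviations over 0.1, and 0 of 12 arrays correlated best with its own number. With the number as a block, 1 of the 9 genes was called against heterozygotes and 7 genes overall between heterozygotes and wild type; Aqp2 passed against wild type (adjusted p = 0.0435) and Aqp4 did not (adjusted p = 0.0638). Differences near 0 changed sign without passing: against heterozygotes Aqp1 reached 0.018 and Avpr2 0.058 with array weights, and Avpr2 0.0023 with medians centred. With 1 array left out, Aqp1 ran from -0.064 to 0.030 and Avpr2 from -0.075 to 0.090 against heterozygotes, Aqp8 from -0.034 to 0.00015 for mutant against wild type, and Aqp2 from -0.116 to 0.047 and Avpr2 from -0.138 to 0.027 for heterozygote against wild type. The cause was not tested.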

Other observations

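Markers of the tissues and tubule segments listed here were not called between mutants and wild-type mice with limma. Thick ascending limb markers (5 genes, 2 with an unadjusted p under 0.05) had list means of 11.80 to 11.97 in mutants and 11.96 to 12.06 in wild-type mice. Urothelial markers (6 genes, 0 with an unadjusted p under 0.05), from a lining that also makes Aqp3, had 7.48 to 7.85 and 7.49 to 7.80. Adipocyte markers (7 genes, 2 with an unadjusted p under 0.05), from a cell type that also makes Aqp7, had 7.02 to 7.92 and 7.38 to 8.51. Erythroid markers (3 genes, 0 with an unadjusted p under 0.05), from cells that also carry Aqp1, had 6.82 to 8.31 and 6.91 to 7.13. The adrenal cortex markers (5 genes) and the pancreas markers (5 genes) had 0 with an unadjusted p under 0.05. The adrenal markers, high on 1 mutant array, had a median difference of 1.26 (lowest adjusted p = 0.346).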
